A study of Mus musculus with 6 samples.

Results

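The loci of Sox9, Runx2, Pparg, Cebpa and Myod1, transcription factor genes that direct mesenchymal cells toward cartilage, bone, fat or skeletal muscle, were examined for 2 histone marks in C3H10T1/2 cells. Each locus was taken as a fixed interval on the mouse build mm9, and every listed peak of H3K27me3 or H3K36me3 in or within 100 kb of it was kept. This gave 9 peaks out of 11772, of which 3 were among the 3999 H3K27me3 peaks and 6 were among the 7773 H3K36me3 peaks. The choice of loci used no peak values, but it was made with earlier results of these data known.

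C3H10T1/2 is a multipotent mesenchymal line derived from C3H mouse embryos, and it was used at passages 10 to 15. A stable transgene supplied histone H3.3 with a FLAG-HA tag, as wild type or as the K36M mutant, in which methionine stands in place of lysine. Mononucleosomes were prepared with micrococcal nuclease and precipitated with an antibody to H3K36me3 or H3K27me3, and 5% of the chromatin was kept as input. Each genotype contributed 1 library per antibody and 1 input, 6 in all, with no replicates. The promoter of the transgene and the number of clones in each line are not stated in the labels used here. The data used are 1 list of peak positions per mark, which names no genotype and gives no signal or depth, so wild-type and K36M cells were not compared and no error can be attached to a peak. A base outside the listed peaks is a base without a call, which does not show that the mark was absent there.

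H3K27me3 is written by Polycomb repressive complex 2 and is known for covering silent developmental regulators, often over broad domains. H3K36me3 is written by SETD2 as it travels with elongating RNA polymerase II, and it is known for marking the bodies of transcribed genes, typically toward their 3′ ends. Lineage regulators of unused fates are a classic Polycomb target in stem and progenitor cells, and the CG-rich promoters of such genes are the usual sites of Polycomb recruitment in mammals.

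The 5 loci fell into 3 states. Myod1 lay wholly under H3K27me3, Sox9 and Runx2 carried H3K36me3 and no H3K27me3, and Pparg and Cebpa had no listed base of either mark. With 1 bp counted, H3K36me3 was found in 7.98% of tiles of the genome as long as Sox9 and in 41.9% of those as long as Runx2, and 67.1% of tiles as long as Pparg and 83.3% of those as long as Cebpa had neither mark. The 2 shares with H3K36me3 include tiles that also held H3K27me3, and tiles with H3K36me3 alone were not counted. At least the H3K36me3 coverage of Runx2 itself was found in 4.01% of tiles of its length. Having neither mark, as at Pparg and Cebpa, was therefore common along the genome. The H3K27me3 list reached at least 50% of the bases at 1 of 5 loci. Among consecutive tiles of the genome of the same length as each locus, that coverage was found in 9.28% for the length of Sox9, 5.99% for Runx2, 8.72% for Pparg, 9.32% for Cebpa and 9.34% for Myod1. The H3K36me3 list reached the same coverage at 1 of 5 loci, Sox9, against 6.15% of tiles for Sox9, 0.493% for Runx2, 4.08% for Pparg, 6.15% for Cebpa and 6.21% for Myod1. The tiles run over all bases between the outermost peaks of a chromosome, genes or not, and 5 single loci are too few to read more from these shares. No peak near a locus shared a base with a peak of the other mark. The exact share of all listed peaks that do so was not computed. Of all H3K27me3 peaks, however, 89.3% lay at least 4.6 kb from any H3K36me3 peak. Of all H3K36me3 peaks, 80% lay at least 16.2 kb from any H3K27me3 peak. Lying apart from the other mark was thus common in both lists and cannot be read as particular to these loci.

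**Figure D1:**
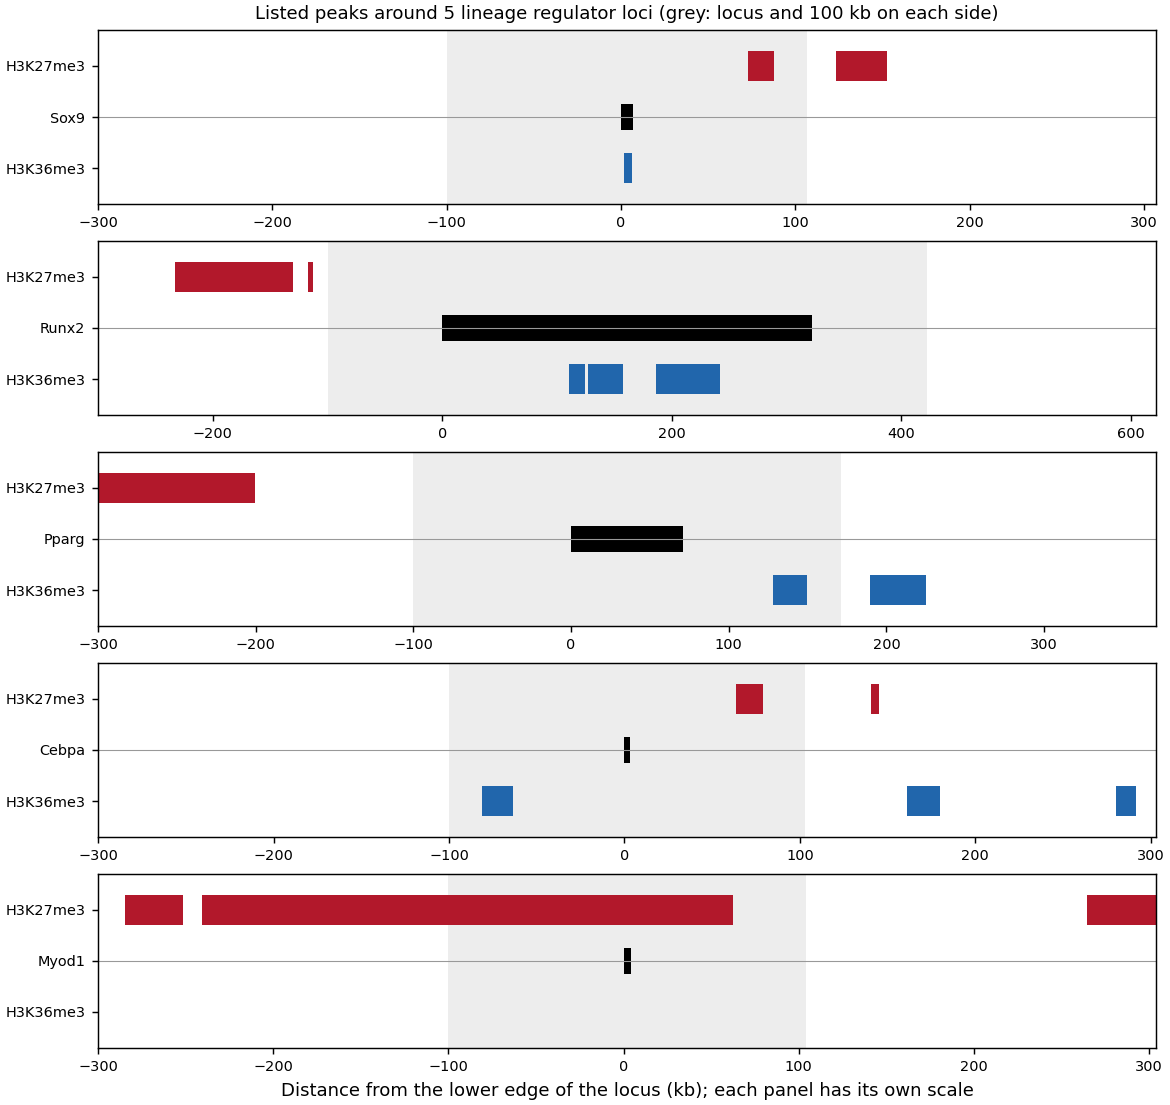
Maps of the 5 loci (black) with the listed H3K27me3 peaks (red, above) and H3K36me3 peaks (blue, below); the x axis is the distance in kb from the lower-coordinate edge of each locus, the grey field is the locus with 100 kb on each side, and bars that reach the frame at 300 kb run on beyond it. Myod1 lies under an H3K27me3 peak of 303.6 kb, Sox9 and Runx2 hold H3K36me3 peaks, and Pparg and Cebpa lie between peaks.

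Promoter sequences are shown because CG-rich promoters are the usual Polycomb sites. The start-side edges of the Runx2, Pparg and Cebpa loci lay away from listed peaks of either mark. The nearest listed base was 63.4 kb from that edge at Cebpa, 79.6 kb at Runx2 and 128 kb at Pparg. The Pparg edge need not be the gene start, since the RefSeq model is 58.5 kb longer than the interval. The Pparg starts were not placed on mm9, so their distances to a peak were not measured. RefSeq promoter windows (GRCm38.p6, 250 bases before to 50 after a start) were at hand for 3 of the 5 genes, namely 1 for Runx2, 3 for Pparg and 1 for Cebpa. The 250 bases before the start are shown for Cebpa (chr7:35119043-35119292, plus strand) and for the most downstream of the Pparg starts (chr6:115421816-115422065, plus strand), with every CG in capitals. These coordinates are on GRCm38, whereas the peaks are on mm9.

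Cebpa: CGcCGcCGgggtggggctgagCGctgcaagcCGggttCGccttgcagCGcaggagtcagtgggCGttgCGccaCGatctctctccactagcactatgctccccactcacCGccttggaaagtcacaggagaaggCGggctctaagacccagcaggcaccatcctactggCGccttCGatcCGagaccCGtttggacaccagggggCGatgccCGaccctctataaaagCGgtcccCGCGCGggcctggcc

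Pparg, the third start: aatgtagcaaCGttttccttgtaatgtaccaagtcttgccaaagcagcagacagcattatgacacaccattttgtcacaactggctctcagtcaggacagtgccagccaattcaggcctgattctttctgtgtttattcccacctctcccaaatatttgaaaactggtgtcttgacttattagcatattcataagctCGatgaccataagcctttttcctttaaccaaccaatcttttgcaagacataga

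The Cebpa window of 300 bases held 29 CG dinucleotides, and 12.9% of 32851 RefSeq promoter windows held as many. The window of the third Pparg start held 2, a number reached by 85.9% of windows. The first Pparg window held 44 (2.25% of windows held as many) and the second 13 (37.9%). The only Runx2 window at hand held 2 CG, a number reached by 85.9% of windows, and it stands for 1 start of the gene only. The motif CG reads the same on both strands, and 94.6% of all windows held at least 1, with a median of 7. Cebpa, whose locus held no listed base of either mark, thus had a CG-rich window with 29 CG. For Pparg, whose interval also held none, the first window was CG-rich with 44 CG and the third CG-poor with 2. The Pparg interval is shorter than the gene and the starts were not placed on mm9. Whether the first window lies inside the interval is therefore not known. No window was at hand for Sox9 or for Myod1, the only locus under H3K27me3. The CG count is a description of the sequence alone, and its relation to the marks was not tested.

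**Figure D2:**
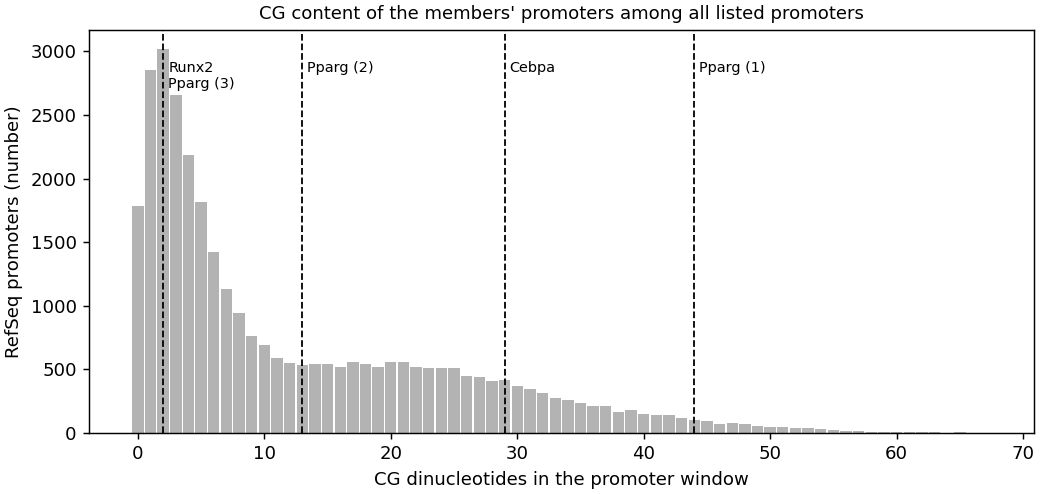
Number of CG dinucleotides in the 300-base promoter windows (x axis) of all 32851 RefSeq promoters (grey bars, number of promoters on the y axis), with dashed lines for the 5 windows of Runx2, Pparg (starts 1 to 3) and Cebpa. The lines lie at 2 for Runx2 and the third Pparg start, 13 and 44 for the other Pparg starts, and 29 for Cebpa.

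Sox9 encodes the transcription factor that starts and maintains the chondrocyte programme, and its locus (chr11:112643000-112650000, 7 kb) carried H3K36me3. The only H3K36me3 peak within 100 kb was 4.2 kb long (chr11:112645001-112649200), lay wholly inside the locus and covered 60% of it. It began 2 kb above the lower edge, the end at which Sox9 starts, and ended 0.8 kb below the higher edge. Of 7 kb tiles, 5.82% had at least this coverage. The peak was short for its mark, since 91.7% of H3K36me3 peaks were as long or longer, and it was 1 of 902 peaks under 5 kb.

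The Sox9 peak also stood far from others of its mark. The nearest other H3K36me3 peak was 863 kb away, and only 119 of the 7773 H3K36me3 peaks (1.53%) were that isolated. On the lower side the next H3K36me3 peak was 1704 kb from the locus. H3K27me3 lay on the higher side only, with a peak of 15.2 kb at 65.8 kb from the locus (chr11:112715801-112731000). A second peak of 29.2 kb lay 116.2 kb away and thus just outside the 100 kb limit. On the lower side no peak of either mark was listed for 1250 kb, up to an H3K27me3 peak of 118.8 kb. This empty stretch of 1252 kb, of which the first 2 kb of the locus form the end, was matched or exceeded by 3.25% of the 11677 stretches between neighbouring peaks. In the RefSeq gene table (GRCm38) the neighbouring protein-coding genes are Gm11677 and Kcnj2 on the lower side and Slc39a11 on the higher side, and Sox9 is known for the long gene-poor regions beside it, which hold its distant enhancers.

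Within 1 Mb of the Sox9 locus, both marks were sparse. H3K27me3 covered 2.21% of the bases with 2 peaks, against 10.5% of chromosome 11 as a whole. H3K36me3 covered 2.38% with 4 peaks, against 10.6% of the chromosome. Sox9 was the locus with the lowest coverage by both marks over that distance.

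Runx2 encodes the factor required for osteoblast differentiation, and it held the most H3K36me3 of the 5 loci. The locus (chr17:44630000-44952000) is 322 kb long, and the RefSeq gene model spans 319 kb on the minus strand, so the gene starts close to the higher-coordinate edge. The H3K36me3 peaks inside it were 14.4 kb (chr17:44740201-44754600), 30.4 kb (chr17:44757001-44787400) and 56.6 kb long (chr17:44815801-44872400). Together they covered 101.4 kb, or 31.5% of the locus. Of 322 kb tiles, 4.01% had at least this coverage, and 41.9% held some H3K36me3.

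The 3 Runx2 peaks formed a block in the middle of the gene. The block was 132.2 kb long and peaks covered 76.7% of it, with gaps of 2.4 kb and 28.4 kb between them. It left out 79.6 kb at the start side of the locus and 110.2 kb at the far side. In the direction of transcription, the peak nearest the start was the longest, exceeded or matched by 4.7% of the H3K36me3 list, and the next were matched by 20.2% and 51.8%. Runx2 is known to be transcribed from a distal and a proximal promoter. The position of the proximal promoter on mm9 was not analysed here, so the edge of the block was not set against it.

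No H3K27me3 peak lay in or within 100 kb of Runx2. The nearest was a peak of 4.2 kb at 112.6 kb on the lower side, next to one of 102.8 kb at 130.4 kb. On the higher side the nearest H3K27me3 peak was 433.2 kb away and the nearest H3K36me3 peak outside the locus 570 kb away. Within 500 kb of the locus, the listed H3K36me3 thus lay inside Runx2 only. The RefSeq neighbours are Clic5 on the lower and Supt3 on the higher side. Within 1 Mb, H3K27me3 covered 16.2% of the bases (12.9% of chromosome 17) and H3K36me3 7.13% (7.96%), or 2.89% of the bases outside the Runx2 peaks themselves.

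Pparg encodes the nuclear receptor that drives adipocyte differentiation and is the target of the thiazolidinediones. Its locus (chr6:115370000-115441000, 71 kb) had no listed base of either mark, as had 67.1% of 71 kb tiles. The locus lay in an empty stretch of 328.8 kb (chr6:115169201-115498000), and 11.9% of the stretches between neighbouring peaks were as long. The stretch was bounded by an H3K27me3 peak of 179.6 kb at 200.8 kb on the lower side and by an H3K36me3 peak of 21.4 kb at 57 kb on the higher side (chr6:115498001-115519400). The latter was the only peak within 100 kb, and it was of ordinary length, matched by 34.2% of its list. A further H3K36me3 peak of 35.8 kb followed at 118.4 kb.

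The interval used for Pparg is shorter than the gene. The RefSeq model on GRCm38 spans 129.5 kb, which is 58.5 kb more, and it includes the upstream starts described above. The lower side of the interval, from which a plus-strand gene is read, had no peak of either mark for 200.8 kb. Within 1 Mb, H3K27me3 covered 11.4% and H3K36me3 5.88% of the bases, against 6.76% and 4.46% of chromosome 6.

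Cebpa encodes C/EBPα, which acts with PPARγ in the terminal steps of fat cell differentiation. Its locus (chr7:35904000-35907000, 3 kb) also had no listed base of either mark, as had 83.3% of 3 kb tiles. It lay almost at the centre of an empty stretch of 127.2 kb with a different mark on either side. The lower edge of the stretch was an H3K36me3 peak of 17.8 kb at 63.4 kb (chr7:35822801-35840600), and the higher edge was an H3K27me3 peak of 15.2 kb at 60.8 kb (chr7:35967801-35983000). Stretches of this length or more made up 24.4% of all, with a median of 33.2 kb. The neighbouring protein-coding genes in RefSeq are Gm45095 and Cebpg, another C/EBP gene, on the lower side and Slc7a10 on the higher side.

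Farther out on the higher side, an H3K27me3 peak of 4.4 kb at 137.6 kb was followed by H3K36me3 peaks of 18.6 kb at 158.2 kb and 11.6 kb at 277.2 kb. Within 1 Mb of Cebpa there were 15 H3K36me3 peaks, which covered 15.7% of the bases against 5.36% of chromosome 7. H3K27me3 covered 9.17%, against 6.33% of the chromosome. Within 100 kb, both marks were listed at Cebpa, as in 16.7% of tiles of that length, and H3K36me3 without H3K27me3 at Pparg. Of tiles as long as Pparg with its flanks, 35.9% held H3K27me3 and 38.5% H3K36me3. Each of these shares includes the 22.2% of tiles that held both marks.

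Myod1 encodes MyoD, the factor that can convert fibroblasts and C3H10T1/2 cells into muscle cells. It was the only one of the 5 loci under H3K27me3. The locus (chr7:53631000-53635000, 4 kb) lay wholly inside an H3K27me3 peak of 303.6 kb (chr7:53390001-53693600). Of 4 kb tiles, 8.79% lay wholly under H3K27me3 peaks of any length. The peak ranked 85th by length in its list, where 2.13% of peaks were as long, and it was 12.4 times the median H3K27me3 length. It belonged to the 838 H3K27me3 peaks of 100 kb or longer.

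The domain was not centred on Myod1. It reached 241 kb below the locus and 58.6 kb above it, so that all bases of the lower 100 kb and 58.6 kb of the higher 100 kb were covered. Beyond its lower end a further H3K27me3 peak of 33.2 kb (chr7:53346401-53379600) began after a gap of 10.4 kb, close to the smallest gap of 10.2 kb in the list. The next H3K27me3 peak on the higher side was 260.8 kb from the locus. H3K36me3 was not listed within 300 kb of Myod1, and the nearest peaks were 328.6 kb below and 308.6 kb above the locus. The edge of the domain itself was 87.6 kb from the nearest H3K36me3 peak. The RefSeq neighbours are Otog and Ush1c on the lower side, genes known for their role in the inner ear, and Kcnc1, a potassium channel gene of neurons, on the higher side. Which of these genes lie under the domain was not determined, as the gene table is on another build.

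Within 1 Mb of Myod1, H3K27me3 covered 25% of the bases, against 6.33% of chromosome 7, and the domain over Myod1 itself made up most of this. Of the bases outside the domain, H3K27me3 covered 11.6%. H3K36me3 covered 11.5% with 17 peaks, against 5.36% of the chromosome. Myod1 and Cebpa lie on the same chromosome, and their windows of 1 Mb do not meet.

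**Figure D3:**
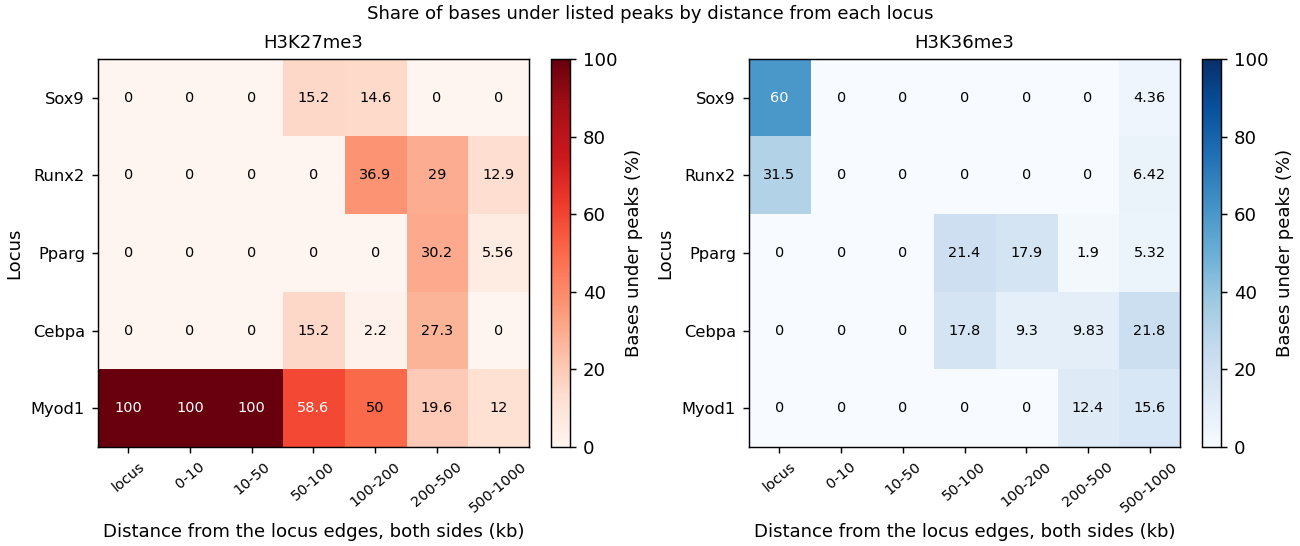
Share of bases (%) under listed H3K27me3 peaks (left) and H3K36me3 peaks (right) in each locus and in bins of distance from its edges, both sides together (x axis, kb), for the 5 loci (y axis); darker cells mark higher shares. Myod1 has 100% H3K27me3 out to 50 kb. H3K36me3 at Sox9 and Runx2 lies inside the locus and appears next at 500 to 1000 kb. At Pparg and Cebpa the first bases under a peak appear at 50 to 100 kb.

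Compared by distance, no flank within 50 kb of any locus held a listed peak except at Myod1. H3K36me3 was found inside the chondrogenic and osteogenic loci and was not listed from 0 to 500 kb outside them. At the adipogenic loci it covered 0% inside and to 50 kb, and from 50 to 100 kb 21.4% at Pparg and 17.8% at Cebpa, each from 1 peak. Single loci are not replicates of a lineage, and the coverage of such bins along the genome was not computed. H3K27me3 from 50 to 100 kb was 15.2% at both Sox9 and Cebpa, each from a peak of 15.2 kb on the higher side, and 0% at Runx2 and Pparg. From 100 to 200 kb it was 36.9% at Runx2, all of it on the lower side, and from 200 to 500 kb it was 30.2% at Pparg. With flanks of 100 kb, 4 of 5 loci had H3K36me3, the exception being Myod1. Of tiles as long as the locus with its flanks, H3K36me3 was found in 33.8% for Sox9, 52% for Runx2, 38.5% for Pparg, 33.1% for Cebpa and 33.6% for Myod1. H3K27me3 was found at 3 of 5 loci, Sox9, Cebpa and Myod1, against 31.3% of tiles for Sox9, 49.2% for Runx2, 35.9% for Pparg, 31% for Cebpa and 31.2% for Myod1. The loci with both marks were Sox9 and Cebpa, 2 of 5, against 17.2% of tiles for Sox9, 37.2% for Runx2, 22.2% for Pparg, 16.7% for Cebpa and 17% for Myod1. A peak of either mark within 100 kb is thus common along the genome, and no difference between loci rests on these counts.

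**Figure D4:**
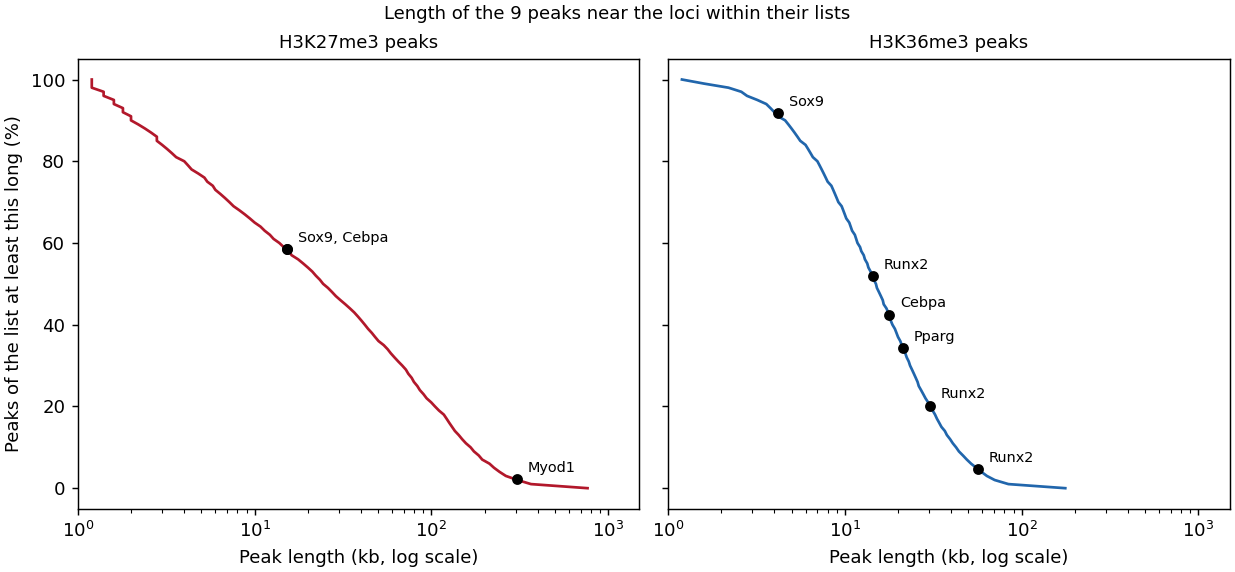
Share of each list (%, y axis) that is at least as long as a given length (kb, log scale, x axis) for H3K27me3 (left) and H3K36me3 (right), with the 9 peaks near the loci as black points named by locus. The Myod1 peak of 303.6 kb and the longest Runx2 peak of 56.6 kb lie at the long ends, and the Sox9 peak of 4.2 kb lies at the short end.

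Compared by length, the peaks inside Myod1 and Sox9 and the longest Runx2 peak lay near the ends of their lists, and the other 6 peaks lay between, with 20.2 to 58.5% of the list as long. The 3 H3K27me3 peaks were 15.2, 15.2 and 303.6 kb long, around a list median of 24.4 kb, so that the peaks beside Sox9 and Cebpa were shorter than the median and the Myod1 domain was far longer. The 6 H3K36me3 peaks ranged from 4.2 kb at Sox9 to 56.6 kb at Runx2, with a median of 19.6 kb against 15 kb for the list. The Sox9 locus is 7 kb long and the Runx2 locus 322 kb. As a share of the locus, the order for H3K36me3 was the opposite, 60% at Sox9 and 31.5% at Runx2. That order depended on how tightly the intervals were drawn. With 10 kb added on each side the shares were 15.6% at Sox9 and 29.6% at Runx2. With 1 library per antibody and genotype, none of these differences could be set against a replicate error.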

How the data were processed

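H3K36me3 and H3K27me3 were measured by ChIP-seq in 4 libraries, with 2 inputs, and 1 library per antibody and genotype. The deposited files are 2 lists of peaks with 3 columns (chromosome, start, end) and no signal. Reads were aligned with Bowtie 1.0.0 to mm9, per the submitters' processing notes. How peaks were called, whether the inputs were used and which genotypes each list holds is not given in the sources used here, and the depth is unknown. All starts are multiples of 200 bp and all ends lie 1 bp before one, so the end base was counted as part of the peak, and coordinates are 1-based.

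The loci and lists were chosen with earlier results of these data known. A peak counted for a locus when it lay in it or within 100 kb of its edge. All 5 genes were named, with each peak in the window and the nearest peak beyond. Background shares come from consecutive tiles of each locus length between the outermost peaks of each chromosome. No test was run, as there are no replicates. Coverage functions were tested on 20 simulated lists and recovered all 20. RefSeq tables on GRCm38 gave gene lengths, neighbours and promoter sequences, and no coordinates were converted. A list of other lineage genes was not analysed here, since their mm9 positions were not at hand. Python 3.11.15, numpy 2.4.6, pandas 2.3.3 and matplotlib 3.10.9 were used. Alternatives were flanks of 50 or 200 kb, peaks closer than 5 kb joined, peaks at least as long as the list median, 1 bp or all bases in place of 50%, and 10 kb added to each locus.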

Additional observations from a re-analysis of the deposited data

How the results depend on the processing

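Of 46 values recomputed under the alternatives, 35 were the same or, for counts, within 1.5 times, and 11 moved. Some of the 35 could not have moved, so their number does not measure robustness. H3K27me3 at Myod1 stayed at 100% and Pparg and Cebpa at 0% of both marks in all alternatives run. These values were fixed by the layout of the peaks. The Myod1 domain reached 241 kb below and 58.6 kb above its locus, and no peak lay within 50 kb of Pparg or Cebpa. The number of H3K27me3 peaks near the loci, 3 within 100 kb, was 1 within 50 kb, 7 within 200 kb and 1 among peaks at least as long as the list median. Wider flanks can only add peaks, and a length filter can only remove them. Shares of tiles with flanks were taken at 100 kb only, so these counts were not set against the genome. The number of loci with H3K36me3, 1 at 50% of bases, was 2 at 1 bp (Sox9 and Runx2), 0 at every base and 0 among the longer peaks, which leave out the Sox9 peak of 4.2 kb. At 1 bp, 7.98% of tiles as long as Sox9 and 41.9% of those as long as Runx2 were reached, and at every base 4.22% and 0%. H3K36me3 coverage of Sox9, 60%, was 0% among the longer peaks and 15.6% with 10 kb added on each side. That of Runx2, 31.5%, was 32.2% after joining, 27% among the longer peaks and 29.6% with 10 kb added. No replicate could be left out, and read depth is unknown for all peaks, so a locus without a peak may hold signal below the authors' threshold. No paired analysis was possible because no result comes from a test and no group has replicates.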
